A study of Mus musculus with 40 samples.

Results

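H3K9me2 was followed across 9 imprinted clusters of the mouse genome in germinal-vesicle oocytes, the fully grown oocytes that are arrested before meiotic maturation. The clusters were taken by position from a table of 10 kb windows in the GRCm38 build, as the windows that start in a fixed interval around Snrpn (chr7:59000001-62500000), Kcnq1 (chr7:142400001-143500000), Peg3 (chr7:6500001-6900000), Igf2r (chr17:12400001-13100000), Dlk1 (chr12:109300001-110000000), Gnas (chr2:174100001-174500000), Grb10 (chr11:11800001-12200000), Mest (chr6:30500001-31000000) and Peg10 (chr6:4500001-5400000). They hold 860 of the 272158 windows of the table (0.316%): 350 in Snrpn, 110 in Kcnq1, 90 in Peg10, 70 each in Igf2r and Dlk1, 50 in Mest and 40 each in Peg3, Gnas and Grb10. Oocytes were dissected by hand from mice aged 22 to 25 days and pooled, 100 to 200 per sample. The genotypes were control, G9a cKO (G9a conditionally deleted) and G9a-Glp cDKO (both genes conditionally deleted), with 2 H3K9me2 libraries each. The strain, the Cre driver and the cross of the controls are not given in the sources used here. G9A is encoded by Ehmt2 and GLP by Ehmt1. H3K9me2 was captured by native chromatin immunoprecipitation adapted to very few cells, and RNA of the same regions was read from 11 separate low-input libraries.

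Imprinted genes are expressed mainly from the copy inherited from one parent. In the germ line each cluster acquires DNA methylation at a control region, most often a promoter that becomes methylated in growing oocytes and in a few cases a region that becomes methylated in sperm, and this mark then decides which parental copy is silent in the embryo. H3K9me2 is a repressive histone mark placed mainly by the paired enzymes G9A and GLP, and it covers broad domains of inactive chromatin.

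Of the 44 imprinted genes listed for these clusters, 34 had a promoter entry in RefSeq (GRCm38.p6), given as 250 bases before to 50 bases after the gene's start. The 4 promoters below lie at control regions of the oocyte-methylated kind, where H3K9me2 is described below, and are shown as examples with few to many CG dinucleotides. CG dinucleotides, the sites of DNA methylation, are in capitals, and each line reads 5′ to 3′ along the strand of the gene. Snurf shares its promoter with Snrpn, which encodes a spliceosomal protein (chr7:60005150-60005449, minus strand).

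Snurf: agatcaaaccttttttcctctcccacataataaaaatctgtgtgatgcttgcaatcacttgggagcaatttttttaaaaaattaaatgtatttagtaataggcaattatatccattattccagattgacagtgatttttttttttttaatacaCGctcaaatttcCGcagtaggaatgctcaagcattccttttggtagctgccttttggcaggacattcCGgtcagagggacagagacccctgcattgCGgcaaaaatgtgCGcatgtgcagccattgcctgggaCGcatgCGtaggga
Peg3: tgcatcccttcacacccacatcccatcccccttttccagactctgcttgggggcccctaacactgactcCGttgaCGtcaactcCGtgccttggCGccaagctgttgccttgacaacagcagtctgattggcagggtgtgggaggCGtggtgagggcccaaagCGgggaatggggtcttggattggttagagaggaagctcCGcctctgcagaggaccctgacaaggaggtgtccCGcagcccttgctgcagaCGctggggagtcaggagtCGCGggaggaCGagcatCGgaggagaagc
Airn: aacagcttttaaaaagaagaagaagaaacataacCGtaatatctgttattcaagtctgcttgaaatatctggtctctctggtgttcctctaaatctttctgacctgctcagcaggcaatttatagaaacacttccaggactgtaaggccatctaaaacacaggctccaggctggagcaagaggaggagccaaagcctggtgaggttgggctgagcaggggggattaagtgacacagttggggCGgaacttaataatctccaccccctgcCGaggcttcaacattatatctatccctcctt
Mest: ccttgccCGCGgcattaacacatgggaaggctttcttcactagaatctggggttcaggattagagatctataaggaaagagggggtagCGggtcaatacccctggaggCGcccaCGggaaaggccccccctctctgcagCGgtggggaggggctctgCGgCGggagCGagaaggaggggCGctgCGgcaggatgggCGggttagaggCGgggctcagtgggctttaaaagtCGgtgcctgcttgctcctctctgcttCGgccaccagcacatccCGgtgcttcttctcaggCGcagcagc

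Peg3, which encodes a zinc finger protein, is at chr7:6730370-6730669 on the minus strand. Airn, a long noncoding RNA read antisense through Igf2r, is at chr17:12741061-12741360 on the plus strand, and Mest, which encodes a protein of the hydrolase fold, at chr6:30737800-30738099 on the plus strand. The Airn stretch holds 3 CG, Snurf 7, Peg3 13 and Mest 17. Among all 32851 RefSeq promoters of this length, 76.7% hold at least as many CG as Airn, 52.1% as many as Snurf, 37.9% as many as Peg3 and 31.4% as many as Mest. The Kcnq1ot1 and Grb10 promoters hold 9 CG each (45.8% of promoters hold at least as many). DNA methylation was not analysed here, and the terms oocyte-methylated and sperm-methylated are background knowledge on these regions. For H19 and Meg3, sperm-methylated refers to a control region of the cluster and not to the promoter itself. At Meg3 that region is the intergenic one between Dlk1 and Meg3, beside the promoter. Whether the stretches described below hold these regions was not checked.

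The table gives each window as its share of the reads of its library, as reads per 1000000 reads (RPM), so a change in the total amount of H3K9me2 cannot be seen. Library totals were 7048784 and 19128881 reads in controls and 1109191 to 1881848 in the 4 mutant libraries, with a median of 28 and 77 reads per window in controls and 4 to 7 in mutants. Depth and genotype therefore cannot be told apart. Across 100 kb bins of the genome, Pearson's r between the 2 libraries of a group was 0.967 in controls, 0.823 in G9a cKO and 0.837 in cDKO, and between controls and mutants it was 0.586 to 0.765 (over bins, which are not independent replicates). In the RNA libraries 8 of 8 matched oocyte markers were above 10 RPM, with a summed level of 9240 to 12000 RPM. The 7 granulosa markers summed to 108 to 193 RPM, with 2 of them above 10 RPM in controls, and the 1 matched blood marker had 0 reads. Ehmt1 was at 54.5 to 90.5 RPM in controls and G9a cKO and at 17.7 and 21.3 RPM in cDKO. Ehmt2 was at 5.03 to 12.5 RPM in controls, at 2.09, 6.01 and 0.942 RPM in G9a cKO and at 2.85 and 2.96 RPM in cDKO, so G9a cKO replicate 2 lay within the control range. These checks are on the RNA libraries, and none was made on the H3K9me2 libraries. Nothing in the labels says that the samples of a group come from separate animals, so p-values measure only the spread between these samples.

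At all 9 listed oocyte-methylated promoters, H3K9me2 over 30 kb was higher in both G9a cKO libraries than in both controls, and the same was so for both cDKO libraries. Across all runs of 3 windows in the genome, 26% had both G9a cKO libraries above both controls and 25.6% had both cDKO libraries above them. The 2 mutants are set against the same control libraries, so these counts are not independent of each other. The ratio of group means was at least 1.5 at 9 of 9 promoters in G9a cKO (14.4% of all runs) and at 8 of 9 in cDKO (9.95% of all runs). Each 30 kb stretch is the 10 kb window that holds the gene's start with the window on each side, a choice made after the values had been seen. In the promoter window alone, both G9a cKO libraries lay above both controls at 7 of 9 promoters (20.5% of all windows) and both cDKO libraries at 8 of 9 (20.3% of all windows). The exceptions were Mest, where G9a cKO replicate 2 had 2.71 RPM against 3.55 and 4.29 RPM in controls, and Peg10, where it had 2.71 RPM and cDKO replicate 1 had 4.06 RPM against 2.98 and 4.08 RPM. These values rest on 3 reads in G9a cKO replicate 2 at each place and 7 reads in cDKO replicate 1.

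At the Snrpn promoter (chr7:59990001-60020000) the controls were at 3.07 and 2.86 RPM per window, G9a cKO at 11.1 and 9.02 RPM and cDKO at 7.16 and 5.67 RPM. Every mutant library there lay above both controls. At the Peg3 promoter (chr7:6720001-6750000) the controls were at 3.50 and 2.72 RPM, G9a cKO at 10.95 and 9.92 RPM and cDKO at 6.77 and 6.73 RPM. These are the 2 promoters with the largest ratios of G9a cKO to control, 3.40 and 3.36. They rest on 65 and 164 control reads and 30 to 62 mutant reads at Snrpn, and on 74 and 156 control reads and 33 to 61 mutant reads at Peg3.

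Kcnq1ot1 and Airn are long noncoding RNAs transcribed antisense to a protein-coding gene, and both start in a control region. At the Kcnq1ot1 promoter (chr7:143280001-143310000) the controls were at 3.31 and 3.63 RPM, G9a cKO at 9.15 and 7.81 RPM and cDKO at 8.32 and 5.14 RPM. At the Airn promoter (chr17:12730001-12760000) the controls were at 3.83 and 3.92 RPM, G9a cKO at 8.62 and 7.81 RPM and cDKO at 8.71 and 7.44 RPM. Airn was the promoter at which both mutants lay closest together, with ratios to control of 2.12 and 2.08.

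Nespas, an antisense noncoding RNA, and Gnas, which encodes the alpha subunit of the stimulatory G protein, have neighbouring control regions, and their 30 kb stretches lie end to end. At Nespas (chr2:174280001-174310000) the controls were at 4.11 and 3.66 RPM, G9a cKO at 9.33 and 6.61 RPM and cDKO at 7.16 and 6.91 RPM. At Gnas (chr2:174310001-174340000) the controls were at 3.64 and 3.89 RPM, G9a cKO at 8.44 and 5.11 RPM and cDKO at 7.54 and 6.73 RPM. The 2 G9a cKO libraries differed from each other at both places by more than the controls did.

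Grb10 encodes an adaptor that restrains growth factor signalling, and Peg10 is a gene derived from a retrotransposon that serves the placenta. At the Grb10 promoter (chr11:12010001-12040000) the controls were at 3.83 and 4.11 RPM, G9a cKO at 8.80 and 8.11 RPM and cDKO at 7.54 and 4.78 RPM. At Mest (chr6:30720001-30750000) the controls were at 3.36 and 4.13 RPM, G9a cKO at 9.15 and 6.31 RPM and cDKO at 6.19 and 5.31 RPM. At Peg10 (chr6:4730001-4760000) the controls were at 3.55 and 3.97 RPM, G9a cKO at 5.92 and 7.21 RPM and cDKO at 5.22 and 4.43 RPM. Peg10 had the smallest ratios, 1.75 in G9a cKO and 1.28 in cDKO.

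Over 30 kb the promoters of the sperm-methylated kind did not lie higher in G9a cKO, and in cDKO 1 of the 2 overlapped the controls. At H19, a maternally expressed noncoding RNA (chr7:142560001-142590000), the controls were at 5.25 and 5.25 RPM, G9a cKO at 2.33 and 3.31 RPM and cDKO at 3.29 and 4.78 RPM, all below the controls. At Meg3, also a noncoding RNA (chr12:109530001-109560000), the controls were at 4.21 and 3.90 RPM, G9a cKO at 1.97 and 3.61 RPM and cDKO at 3.10 and 4.96 RPM. In cDKO the Meg3 values overlapped the controls. In the promoter window alone cDKO lay above both controls at each, with 6.38 and 5.85 RPM against 4.68 and 4.71 RPM at H19 (11 reads in each cDKO library) and 3.48 and 3.72 RPM against 2.70 and 3.29 RPM at Meg3 (6 and 7 reads), so in cDKO the order at these places depends on the width. Over 30 kb the G9a cKO values rest on 13 and 11 reads at H19 and on 11 and 12 reads at Meg3. The share of all runs with both mutant libraries below both controls is not given here, so this order has no background. The difference between the kinds of promoter was not tested.

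**Figure D1:**
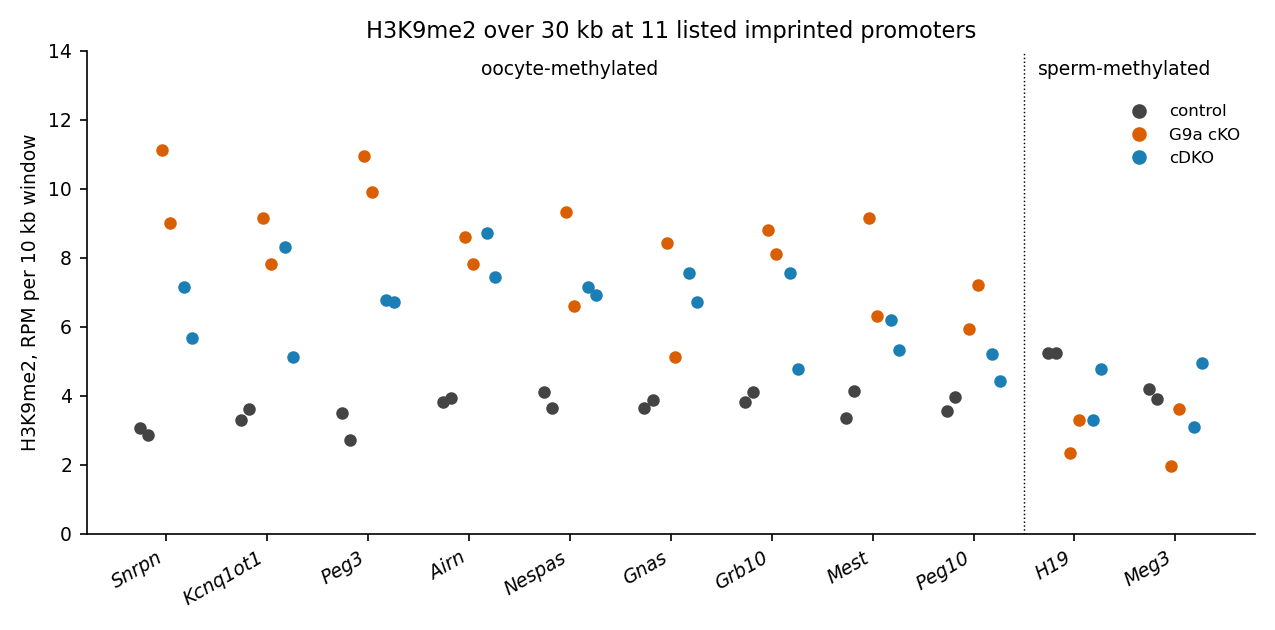
H3K9me2 over 30 kb at each of 11 listed imprinted promoters, in RPM per 10 kb window, with 1 point per library (2 each of control, G9a cKO and cDKO). At the 9 oocyte-methylated promoters all mutant points lie above both control points. At H19 and Meg3 the G9a cKO points, of 11 to 13 reads each, lie below them, an order for which no genome share is given.

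In a limma fit over 85396 stretches of 30 kb with these promoters included, 8 of the 9 oocyte-methylated promoters were called higher in G9a cKO at a Benjamini-Hochberg adjusted p under 0.05, where 7.16% of all stretches were called higher. The log2 difference was 1.76 at Snrpn (SE 0.22, adjusted p = 0.0052) and 1.76 at Peg3 (SE 0.21, adjusted p = 0.0052). It was 1.29 at Kcnq1ot1 (SE 0.25, adjusted p = 0.0142), 1.09 at Grb10, 1.08 at Airn, 1.03 at Mest, 1.02 at Nespas and 0.80 at Peg10 (adjusted p = 0.0457). Gnas, with 0.80, had an adjusted p of 0.0627. H19 had a log2 difference of -0.92 (adjusted p = 0.0624) and Meg3 of -0.60 (adjusted p = 0.264). The median over all stretches was -0.127. In cDKO 0 of the 9 were called by limma, as were 0 of all 85396 stretches (0%), and 8 of the 9 had an unadjusted p under 0.05, where 15.9% of all stretches did. The cDKO log2 differences ran from 0.36 at Peg10 to 1.13 at Peg3, with a median of 0.92 over the 9 promoters and of -0.054 over all stretches. Between cDKO and G9a cKO 0 of 9 were called by limma (0.00937% of all stretches), with 2 at an unadjusted p under 0.05, where 16.9% of all stretches were. The G9a cKO calls fell to 3 (Snrpn, Peg3 and Kcnq1ot1) without control replicate 1 and to 3, the same genes, without control replicate 2.

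The difference was largest near the promoter. Averaged over the 9 promoters by distance along the chromosome, the windows within 10 kb held 3.58 and 3.65 RPM in controls, 9.05 and 7.55 RPM in G9a cKO and 7.18 and 5.90 RPM in cDKO. From 20 to 50 kb away the mutant libraries were still above both controls, at 5.06 and 4.57 RPM in G9a cKO and 5.06 and 4.62 RPM in cDKO against 3.57 and 3.87 RPM. From 60 to 90 kb away they were at 4.38 to 4.66 RPM against 4.14 and 4.30 RPM. From 100 to 200 kb away the levels were 4.11 and 4.15 RPM in controls, 4.44 and 4.16 RPM in G9a cKO and 3.94 and 4.32 RPM in cDKO. Among the 36 distances beyond 20 kb, no mean rose above 6.01 RPM in G9a cKO, 6.26 RPM in cDKO or 4.95 RPM in controls. In each G9a cKO library and in cDKO replicate 1 the highest of the 41 distances was 10 kb from the promoter window, and in cDKO replicate 2 it was the promoter window itself. Leaving out each promoter in turn, the mean at the promoter window stayed between 3.39 and 3.69 RPM in controls and between 5.91 and 9.22 RPM in the mutant libraries. At the 2 sperm-methylated promoters the windows within 10 kb held 4.73 and 4.57 RPM in controls, 2.15 and 3.46 RPM in G9a cKO and 3.19 and 4.87 RPM in cDKO.

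**Figure D2:**
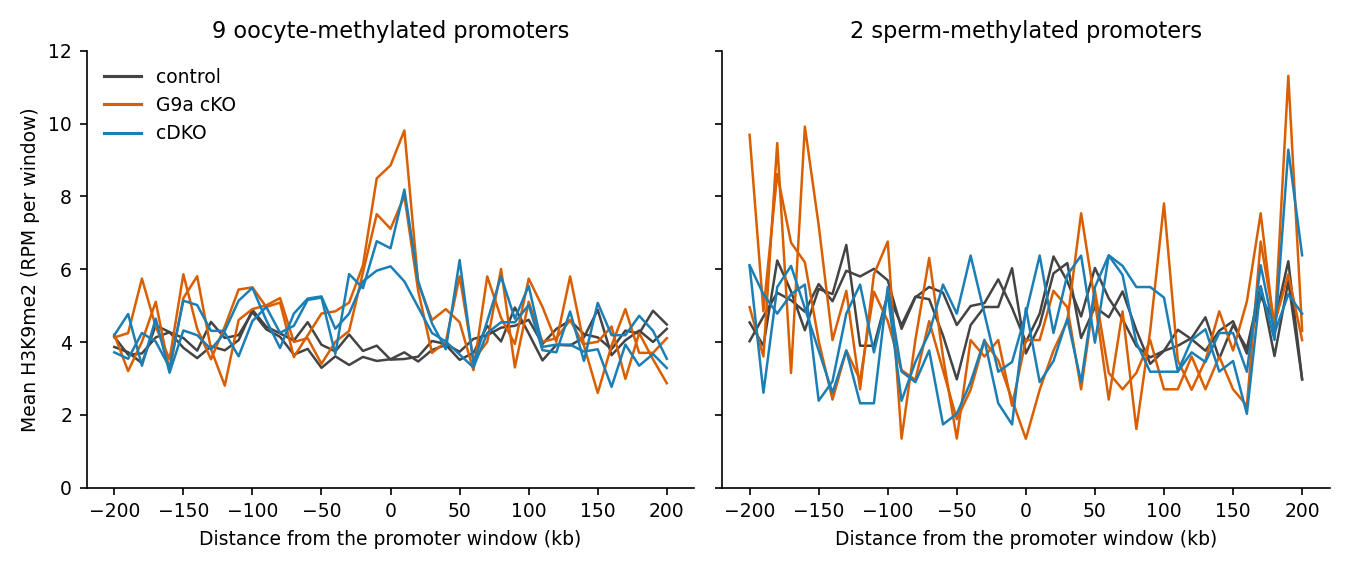
Mean H3K9me2 in RPM per 10 kb window against the distance in kb from the promoter window, for the 9 oocyte-methylated and the 2 sperm-methylated promoters, with 1 line per library. The mutant lines form a peak at the oocyte-methylated promoters, where the window at 0 holds 6.08 to 8.86 RPM in the mutants and 3.52 and 3.53 RPM in controls.

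Averaged over other promoters, the differences were smaller. The other 25318 windows of the genome with a RefSeq promoter averaged 3.92 and 3.88 RPM in controls, 3.76 and 3.93 RPM in G9a cKO and 3.96 and 4.01 RPM in cDKO. Those with the start of an RNA locus at 10 RPM or more in controls, 5767 windows, averaged 3.66 and 3.52 RPM in controls and 3.63 to 4.09 RPM in mutants. Within the clusters, the 105 other windows with a promoter averaged 4.09 and 4.12 RPM in controls, 3.96 and 3.75 RPM in G9a cKO and 3.71 and 4.40 RPM in cDKO. Both G9a cKO libraries lay above both controls in 19.5% and both cDKO libraries in 22.5% of the other promoter windows of the genome, in 21.3% and 30.1% of those at a transcribed start, and in 22 and 21 of the 105 within the clusters. Whether the 9 oocyte-methylated promoters differ from these was not tested.

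Taken whole, the clusters had a mean of 3.60 and 3.64 RPM per window in controls, 4.25 and 4.05 RPM in G9a cKO and 4.02 and 3.96 RPM in cDKO. The rest of the table, 99.684% of its windows, averaged 3.71 to 3.74 RPM. Scaling to RPM holds that mean nearly fixed, so it does not show that other regions were unchanged. In controls the clusters spanned most of the range of the genome. Snrpn was the lowest, with 2.83 and 2.77 RPM, at percentile 3.1 among 500 kb tiles in both control libraries. Gnas was the highest, with 4.77 and 5.04 RPM (percentiles 94.2 and 97.3), followed by Kcnq1 with 4.64 and 4.95 RPM (percentiles 90.4 and 95.6), and the ranges of these 2 clusters overlapped. Dlk1 was at 4.27 and 4.196 RPM and Peg3 at 4.07 and 4.21 RPM, again overlapping. Grb10 (3.83 and 4.08 RPM), Peg10 (3.82 and 3.90 RPM) and Igf2r (3.82 and 3.81 RPM) lay together near the middle, the upper Grb10 value just reaching the lower Peg3 value, and Mest was at 3.51 and 3.45 RPM. In Snrpn 4 windows (chr7:59810001-59850000) and in Mest 4 windows (chr6:30760001-30800000) held no read in any library. Inputs were not analysed, so this order of the clusters is one of read shares without correction for input.

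**Figure D3:**
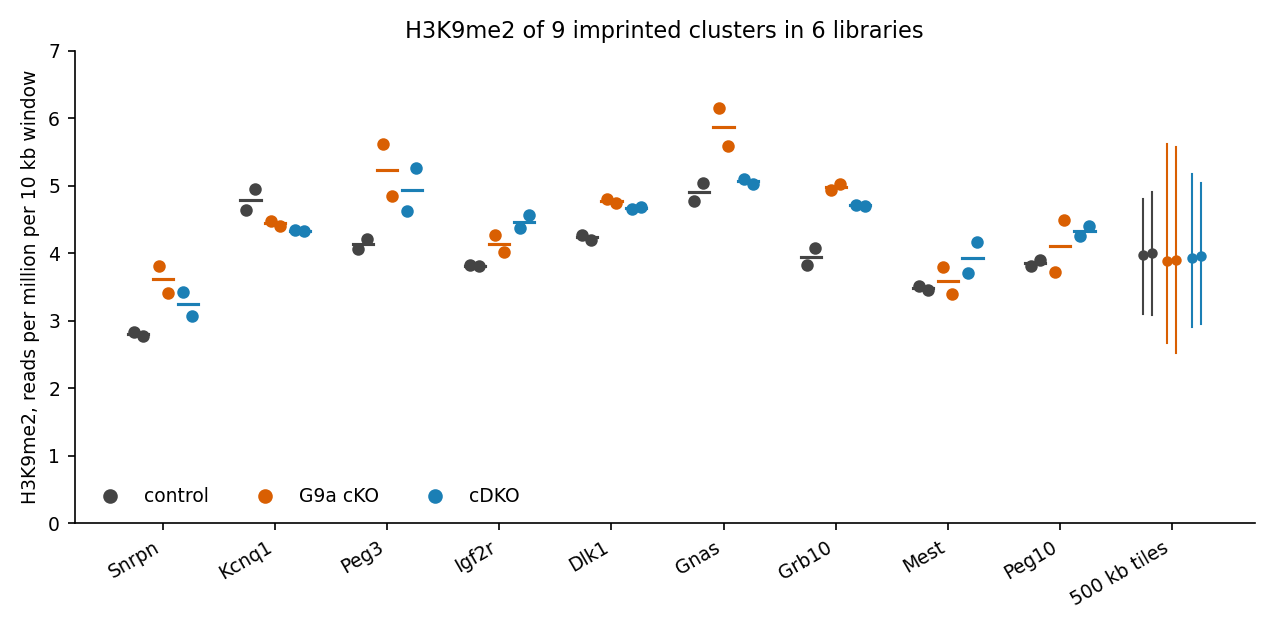
Mean H3K9me2 of each cluster in RPM per 10 kb window, with 1 point per library (2 each of control, G9a cKO and cDKO). Snrpn has the lowest control points (2.77 and 2.83 RPM) and lies higher in every mutant library, and Kcnq1 is the cluster whose mutant points all lie below the controls.

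In G9a cKO 4 of the 9 clusters were called higher and 0 lower by limma over the 9 clusters and 500 kb tiles, where 48.9% of all features were called, 22.1% of the features higher and 26.9% lower. The median log2 difference over the 9 clusters was 0.17, against -0.032 over all features. Snrpn went to 3.82 and 3.41 RPM in G9a cKO and to 3.42 and 3.07 RPM in cDKO, above both controls in each library (G9a cKO log2 difference 0.36, SE 0.09, adjusted p = 0.00752). Grb10 went to 4.94 and 5.03 RPM in G9a cKO and to 4.72 and 4.70 RPM in cDKO, which moved it from percentiles 37 and 55.4 to percentiles 85.4 to 87.7. Its log2 difference was 0.34 in G9a cKO (SE 0.08, adjusted p = 0.00328) and 0.25 in cDKO (SE 0.08, adjusted p = 0.0224). Peg3 went to 5.61 and 4.85 RPM in G9a cKO (log2 difference 0.33, SE 0.09, adjusted p = 0.0114) and to 4.63 and 5.26 RPM in cDKO (log2 difference 0.25, adjusted p = 0.0527). Gnas went to 6.15 and 5.59 RPM in G9a cKO (log2 difference 0.26, SE 0.08, adjusted p = 0.0235), while its cDKO values of 5.11 and 5.02 RPM overlapped the controls.

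In cDKO 2 of the 9 clusters, Grb10 and Igf2r, were called higher and 0 lower, where 34.1% of all features were called, 17% higher and 17% lower. Igf2r went to 4.37 and 4.57 RPM in cDKO (log2 difference 0.23, SE 0.08, adjusted p = 0.0351) and was at 4.27 and 4.02 RPM in G9a cKO (log2 difference 0.12, adjusted p = 0.206). Dlk1 was at 4.80 and 4.74 RPM in G9a cKO and 4.66 and 4.69 RPM in cDKO, above both controls, with adjusted p of 0.0684 and 0.146. Mest and Peg10 overlapped the controls in G9a cKO. Kcnq1 was the cluster whose 4 mutant values, 4.48 and 4.40 RPM in G9a cKO and 4.34 and 4.33 RPM in cDKO, were below both controls, and it was not called (log2 differences -0.11 and -0.15, adjusted p = 0.241 and 0.151).

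No cluster was called between cDKO and G9a cKO by limma (8.02% of all features were), and 1 of 9 had an unadjusted p under 0.05 (27.8% of all features did), Gnas with a log2 difference of -0.21 (adjusted p = 0.123). The counts depend on single libraries. Without control replicate 1 or 2 the G9a cKO count was 1 or 2. The cDKO count was 0 without either control or either cDKO library and 5 without either G9a cKO library.

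**Figure D4:**
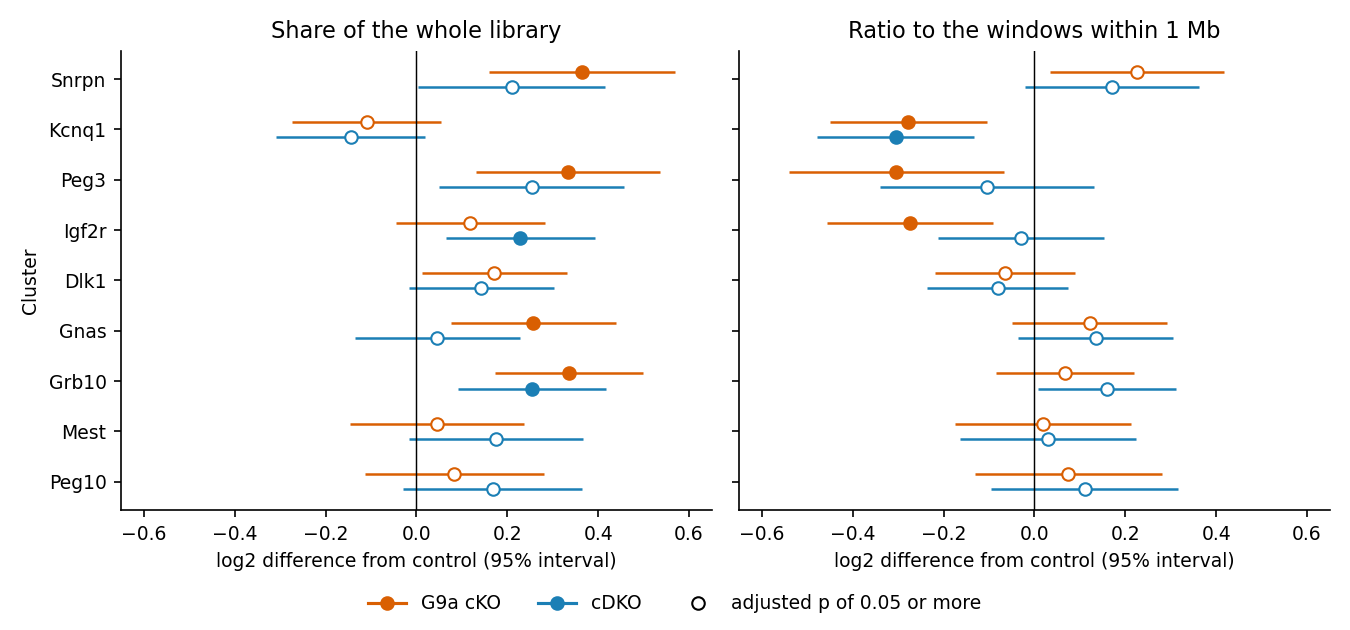
Log2 difference of each cluster from control, with its 95% interval from limma, in G9a cKO and in cDKO, open points marking an adjusted p of 0.05 or more. The left panel shows the share of the whole library and the right panel the ratio to the windows within 1 Mb. On the left, the G9a cKO intervals of Grb10, Snrpn, Peg3, Gnas and Dlk1 lie above 0 (Dlk1 with an adjusted p of 0.0684). Kcnq1 has the lowest value there in both mutants. On the right, the G9a cKO intervals of Peg3, Kcnq1 and Igf2r lie below 0 and that of Snrpn above 0 (adjusted p of 0.0661).

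Set against the windows within 1 Mb on either side, a comparison added after the data had been seen, 3 of 9 clusters were called lower in G9a cKO and 0 higher (17% of 5119 features were called lower and 16.4% higher, 33.4% in all). The flanks of Peg3 had a mean of 2.69 RPM in controls, 4.19 RPM in G9a cKO and 3.45 RPM in cDKO, so the ratio of Peg3 to its flanks fell by 0.30 on the log2 scale in G9a cKO (adjusted p = 0.0487) while its level rose. The flanks of Igf2r went from 3.21 RPM to 4.21 RPM in G9a cKO, and its ratio fell by 0.27 (adjusted p = 0.0271). Kcnq1 fell against its flanks by 0.28 in G9a cKO (adjusted p = 0.0199) and by 0.31 in cDKO (adjusted p = 0.0281), the only call of 9 in cDKO (6.37% of features were called lower). Snrpn had a ratio higher by 0.23 in G9a cKO (adjusted p = 0.0661). The flanks of Grb10 went from 4.28 RPM in controls to 5.16 RPM in G9a cKO, and its ratio differed by 0.067 (adjusted p = 0.487). Those of Dlk1 went from 3.97 RPM to 4.68 RPM, and its ratio differed by -0.065 (adjusted p = 0.508). For Gnas the ratio differed by 0.12 (adjusted p = 0.25). Between the mutants limma called 0 clusters against their flanks (7.35% of features), and 1 of 9 had an unadjusted p under 0.05 (26.6% of features did). Without either control library 0 clusters were called against their flanks in G9a cKO or in cDKO. In G9a cKO 1 was called without G9a cKO replicate 2, and in cDKO 0 without cDKO replicate 1.

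At 100 kb the change inside the clusters was uneven. Of 86 member bins, 20 were called higher and 2 lower in G9a cKO, where 14% and 15.7% of 25549 bins were (29.7% either way). The 9 bins with an oocyte-methylated promoter had 6 called higher and a median log2 difference of 0.70, and the 2 with a sperm-methylated promoter had 0 called and a median of -0.35. The other 75 bins had 14 called higher, 2 lower and a median of 0.084. In cDKO 5 member bins were called higher and 1 lower, where 4.44% and 1.57% of all bins were. Between cDKO and G9a cKO limma called 0 member bins (0.153% of all bins) and 15 (17.4%) had an unadjusted p under 0.05, where 22.1% of all bins did. Without control replicate 1 or 2 the G9a cKO count of 22 was 8 or 7. The cDKO count of 6 was 0 without any one control or cDKO library and 14 without either G9a cKO library.

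The largest rise was in the Snrpn cluster, at chr7:59600001-59700000, a bin that overlaps none of the listed genes. Controls there were at 1.69 and 1.86 RPM, G9a cKO at 5.28 and 4.69 RPM and cDKO at 4.06 and 3.56 RPM, with log2 differences of 1.49 (SE 0.17, adjusted p = 0.000836) and 1.10 (SE 0.17, adjusted p = 0.0176). The bin with the Snrpn promoter itself (chr7:60000001-60100000) was at 3.14 and 3.14 RPM in controls, 5.28 and 3.34 RPM in G9a cKO and 4.35 and 3.35 RPM in cDKO, and was not called (log2 difference 0.42, adjusted p = 0.159). In Snrpn 9 of 35 bins (25.7%) were called higher in G9a cKO and 0 lower, where 14% of all bins were called higher and 15.7% lower.

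The Kcnq1 cluster held a bin that rose and one that fell, with a bin between them that was not called (log2 difference -0.051 in G9a cKO, adjusted p = 0.808). At chr7:143200001-143300000, inside Kcnq1 and with the start of Kcnq1ot1, controls were at 2.58 and 2.84 RPM, G9a cKO at 4.36 and 4.42 RPM and cDKO at 6.09 and 3.88 RPM (log2 differences 0.70 and 0.84, adjusted p = 0.0233 and 0.0362). At chr7:143000001-143100000, which overlaps Tspan32, Cd81 and Tssc4 and was picked out after its values had been seen, controls were at 6.00 and 5.92 RPM, G9a cKO at 4.04 and 4.06 RPM and cDKO at 3.77 and 3.67 RPM. Its log2 differences were -0.56 and -0.68 (adjusted p = 0.0108 and 0.0236). Tspan32 and Cd81 encode tetraspanins, membrane proteins that organise other receptors.

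In the Dlk1 cluster the bin at chr12:109300001-109400000 rose from 5.19 and 4.89 RPM in controls to 8.45 and 9.83 RPM in G9a cKO (log2 difference 0.85, adjusted p = 0.00349). The next bin, which holds Dlk1, a transmembrane protein of the Notch ligand type, fell from 4.51 and 5.02 RPM to 3.28 and 2.79 RPM (log2 difference -0.65, adjusted p = 0.021) and was also picked out after its values had been seen. In cDKO the bin with Mirg, a noncoding RNA that hosts microRNAs (chr12:109700001-109800000), was the called one, at 5.28 and 5.58 RPM against 3.67 and 3.81 RPM in controls (log2 difference 0.54, adjusted p = 0.045).

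In Peg3, Mest, Gnas, Peg10 and Igf2r the called bin with the largest G9a cKO difference was one with an oocyte-methylated promoter. The Peg3 bin (chr7:6700001-6800000) went from 4.07 and 4.00 RPM to 7.43 and 7.21 RPM (log2 difference 0.86, adjusted p = 0.0027), and the Mest bin (chr6:30700001-30800000) from 1.66 and 2.21 RPM to 4.68 and 3.16 RPM (log2 difference 1.00, adjusted p = 0.0135). The Gnas bin (chr2:174300001-174400000) went from 4.23 and 4.16 RPM to 7.11 and 7.30 RPM (log2 difference 0.78, adjusted p = 0.00836), and the Peg10 bin (chr6:4700001-4800000) from 3.476 and 3.801 RPM to 5.49 and 6.85 RPM (log2 difference 0.76, adjusted p = 0.00686). The bin with Nespas next to Gnas, at 4.95 and 5.76 RPM in controls and 6.25 and 4.51 RPM in G9a cKO, overlapped them, and its log2 difference of -0.0093 turned positive (0.073) with each library centred on its median. The Airn bin (chr17:12700001-12800000) was called in both mutants, from 3.788 and 3.795 RPM to 5.28 and 4.78 RPM in G9a cKO and 6.04 and 5.90 RPM in cDKO (log2 differences 0.41 and 0.65, adjusted p = 0.0384 and 0.0259). In Grb10 the bin before the promoter (chr11:11900001-12000000) was called, from 3.36 and 3.27 RPM to 4.58 and 5.05 RPM (log2 difference 0.54, adjusted p = 0.0158), and the promoter bin had 0.46 (adjusted p = 0.0659).

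**Figure D5:**
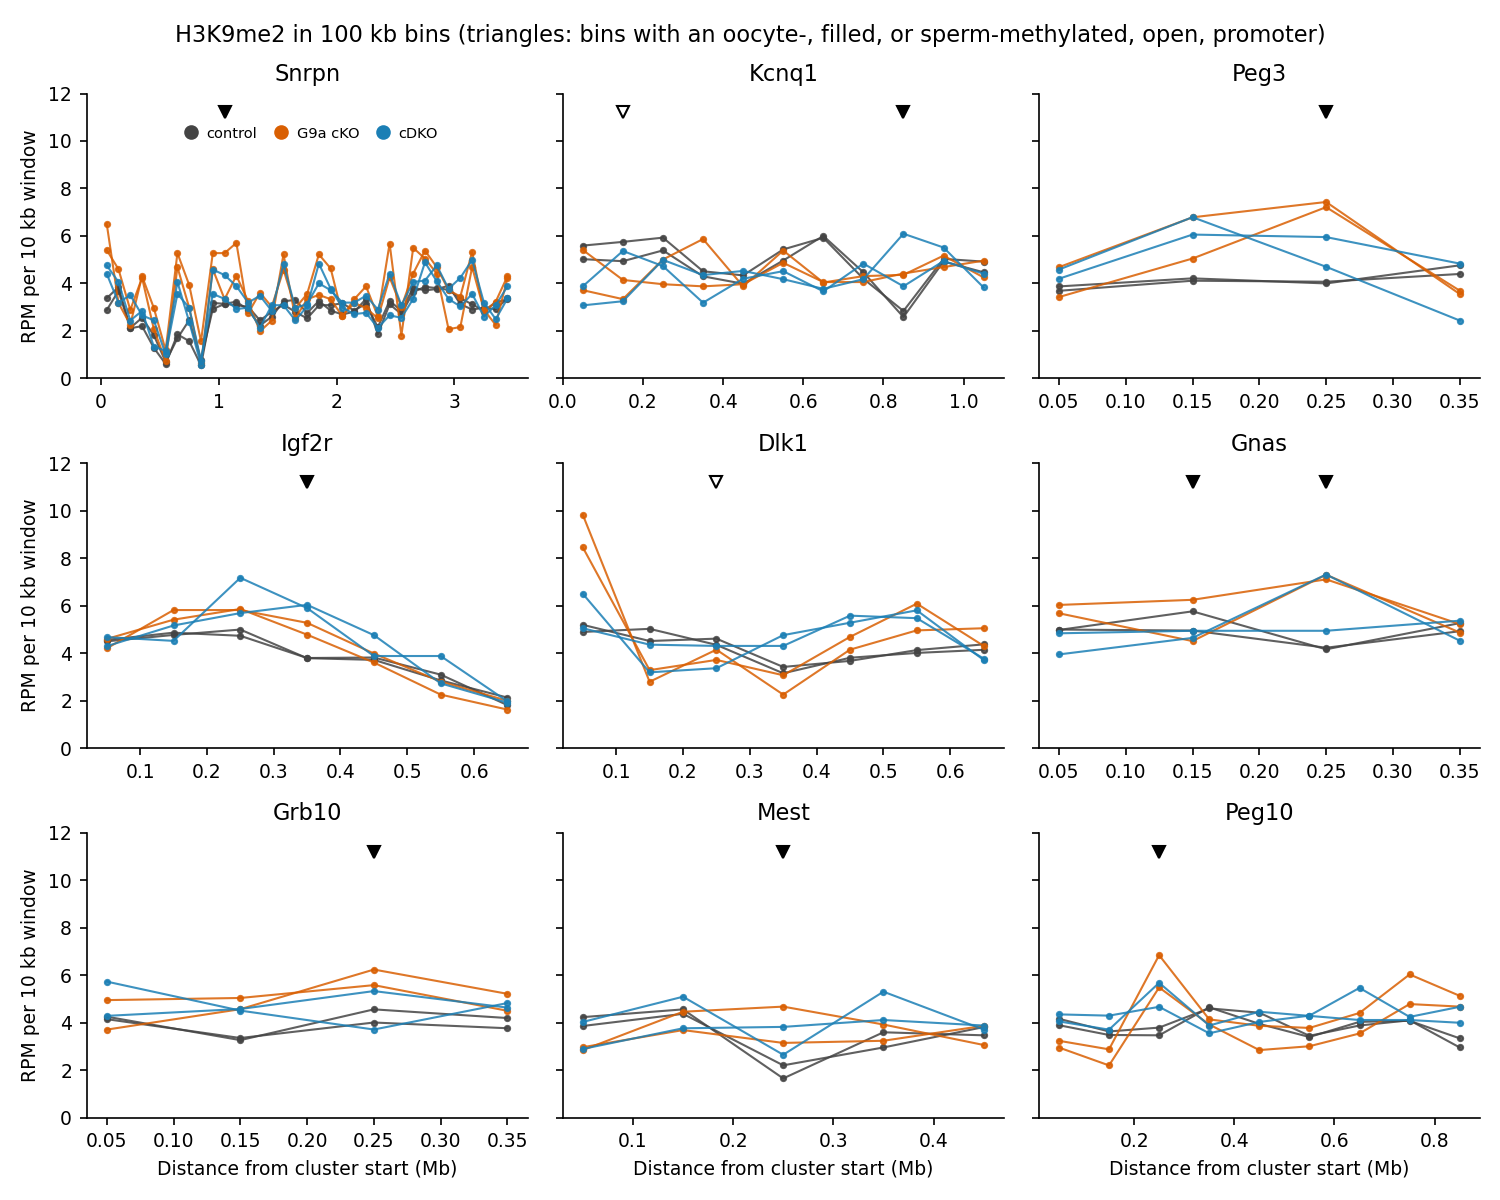
H3K9me2 in RPM per 10 kb window over 100 kb bins against the distance in Mb from the start of each cluster, with 1 line per library. Triangles mark bins with a listed control region promoter, and the mutant lines separate upward from the controls at most filled triangles and in much of Snrpn, and downward in the Kcnq1 bin that fell from 6.00 and 5.92 RPM in controls to 4.04 and 4.06 RPM in G9a cKO.

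Of the 31 member bins with a transcribed locus, at 10 RPM or more in the control RNA, 9 were called higher and 0 lower in G9a cKO (29.0% and 0%), where 17.2% of all transcribed bins were called higher and 8.45% lower. In cDKO 2 were called higher and 0 lower (8.11% and 0.726% of all transcribed bins). Of the 31, the 23 bins without an oocyte-methylated promoter had 4 called higher (17.4%) and 0 lower in G9a cKO. Their median log2 difference there was -0.016, and in cDKO 0 of them were called. Those above 0 numbered 16 of 31 in G9a cKO and 23 of 31 in cDKO. In G9a cKO the 31 bins had a median log2 difference of 0.0093 and the 55 others of 0.20, whereas over the genome the medians were 0.047 in transcribed bins and -0.15 in the others. In cDKO the member medians were 0.19 and 0.10 and the genome medians 0.14 and -0.14. Whether these differ was not tested.

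Single 10 kb windows carried few reads. In G9a cKO 10 of the 852 member windows with a read were called higher and 0 lower (1.75% and 0.102% of 255057 windows, 1.85% either way), and in cDKO limma called 0 (0% of all windows), with 84 members (9.86%) and 9% of all windows at an unadjusted p under 0.05. Between cDKO and G9a cKO limma also called 0 member windows (0% of all), with 101 (11.9%) at an unadjusted p under 0.05, where 13.4% of all windows were. The called windows included those at Peg3 (chr7:6720001-6730000 and chr7:6730001-6740000), the one inside Snrpn (chr7:60010001-60020000) and the one upstream of Mest (chr6:30720001-30730000). Others were away from the listed oocyte-methylated promoters. They lay at chr2:174140001-174150000 (Gnas cluster), chr6:5250001-5260000 (Peg10 cluster), chr7:6590001-6600000 (Peg3 cluster), chr7:62160001-62170000 (Snrpn cluster) and chr12:109360001-109370000 (Dlk1 cluster). In the Snrpn window the controls were at 3.69 and 3.50 RPM (26 and 67 reads), G9a cKO at 13.5 and 13.5 RPM (25 and 15 reads) and cDKO at 9.87 and 5.31 RPM (17 and 10 reads). One further called window (chr7:61350001-61360000) held 1 read in each control and 0 in each mutant, so its called difference of 2.86 comes from the value given to empty windows. With a pseudocount of 1 RPM that difference was -0.13 and 0 windows were called. The count of 10 was 6 without control replicate 2, 37 without G9a cKO replicate 1 (16 higher and 21 lower), and 0 without G9a cKO replicate 2 or either cDKO library.

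Control levels are given here for single windows. They range more widely than cluster means by construction, because a cluster mean averages 40 to 350 windows. The control mean ranged from 0.0971 to 5.95 RPM in Snrpn (median 2.89), from 1.24 to 7.38 RPM in Kcnq1 (median 4.78), from 0.508 to 6.13 RPM in Igf2r (median 3.91) and from 2.40 to 6.88 RPM in Gnas (median 5.05). The Snrpn minimum is the window with 1 read in each control. Among windows with a read in every library, the lowest of Kcnq1 was at chr7:143240001-143250000, inside Kcnq1 and Kcnq1ot1, with 0.851 and 1.62 RPM in controls, 2.69 and 1.80 RPM in G9a cKO and 6.38 and 4.78 RPM in cDKO. The lowest of Peg3, at chr7:6590001-6600000, was among the windows called in G9a cKO. It had 0.851 and 1.67 RPM in controls, 7.54 and 6.31 RPM in G9a cKO and 4.64 and 4.25 RPM in cDKO. These windows were chosen by their control values, so their differences are a description.

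RNA was compared in the same regions, each mutant with the controls that share its title prefix, GKAO for G9a cKO and GKAQ for cDKO. Of the 44 listed genes 36 matched an RNA locus, and 33 of these loci overlapped a cluster. Of the 33, 25 had more than 3 reads in at least 1 library, 8 of 14 paternally expressed genes and 17 of 19 maternally expressed ones. In G9a cKO 2 of the 33 were called higher and 0 lower by limma, where 1.79% of 38540 loci were called (1.05% higher, 0.737% lower). In cDKO 4 were called higher and 2 lower, where 6.34% were (4.32% higher, 2.02% lower). The effects of the mutants differed at 2 of the 33, Snrpn and Ins2, where 1.08% of loci were called. The median log2 difference over all loci was -0.31 in G9a cKO and 0.20 in cDKO, set by loci without reads, and over the 25 genes it was 0.27 and 0.11.

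Grb10 was the gene called higher in both mutants. It was at 38.4, 52.4 and 29.9 RPM in GKAO controls and at 73.5, 75.4 and 53.2 RPM in G9a cKO (log2 difference 0.76, SE 0.21, adjusted p = 0.0188), and at 23.2, 17.1 and 18.2 RPM in GKAQ controls and 67.8 and 41.5 RPM in cDKO (log2 difference 1.45, SE 0.23, adjusted p = 7.58e-08). The mutants lay above their own controls in each library, and the 2 sets of controls differed from each other. Gnas was at 182, 177 and 130 RPM in GKAO controls and 222, 205 and 195 RPM in G9a cKO (log2 difference 0.36, adjusted p = 0.0392), and its cDKO difference was 0.15 (adjusted p = 0.565). The G9a cKO count of 2 was 1 without GKAO control replicate 1 and 0 without GKAO control replicate 3 or G9a cKO replicate 1 or 2, and 0 with a pseudocount of 1 RPM.

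In cDKO Snrpn RNA fell from 20.7, 19.2 and 17.7 RPM in controls to 9.11 and 7.71 RPM (log2 difference -1.19, SE 0.30, adjusted p = 0.00237), and in G9a cKO it was at 28.0, 36.0 and 38.1 RPM against 35.0, 28.3 and 25.2 RPM (log2 difference 0.21, adjusted p = 0.593). Igf2r, the receptor that clears insulin-like growth factor 2, fell from 189, 186 and 178 RPM to 127 and 107 RPM in cDKO (log2 difference -0.66, SE 0.14, adjusted p = 0.000217), with -0.13 in G9a cKO. The GKAO controls were at 138.5, 132.5 and 110.2 RPM, so the 2 sets of controls differed and the cDKO values lay within or just below the GKAO ones. With all 6 RNA controls pooled, 6 genes were called in cDKO, 5 of them higher. Asb4, a substrate adaptor of ubiquitin ligases, rose from 6.28, 10.4 and 16.8 RPM to 23.9 and 29.1 RPM in cDKO (log2 difference 1.35, SE 0.39, adjusted p = 0.0125). Slc22a18 and Ins2 were called higher in cDKO on few reads, Slc22a18 on 2 and 4 reads against 0, 1 and 0, and Ins2, an insulin gene, on 3 and 8 reads against 0 in each GKAQ control. With a pseudocount of 1 RPM 3 genes were called in cDKO.

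Of the 8 genes whose promoters were called higher in H3K9me2 over 30 kb in G9a cKO, 6 were not called in the RNA of G9a cKO, Grb10 was called higher and Kcnq1ot1 had no matched locus. Peg3 was at 63.1, 46.6 and 46.3 RPM in GKAO controls and 66.8, 72.7 and 49.0 RPM in G9a cKO (log2 difference 0.27, adjusted p = 0.327), and at 40.2, 39.2 and 45.8 RPM in GKAQ controls and 30.8 and 34.4 RPM in cDKO (log2 difference -0.36, adjusted p = 0.483). Mest had log2 differences of -0.25 in G9a cKO and -0.13 in cDKO, Airn of 0.35 and -0.50, Nespas of 0.38 and 0.70 and Peg10 of 0.79 and 0.14, with adjusted p of 0.23 to 0.865 for these 4 genes. Kcnq1, in whose body Kcnq1ot1 starts, was at 62.3 to 69.9 RPM in GKAO controls and 57.6 to 70.5 RPM in G9a cKO. The RNA and H3K9me2 libraries come from separate samples, and whether counting used the strand is not given in the sources used here, so antisense pairs such as Airn and Igf2r may share reads.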

How the data were processed

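Per the labels, H3K9me2 libraries were made by native chromatin immunoprecipitation from few cells with 250 ng of antibody. The submitters' processing notes name GRCm38, Trim Galore, Bowtie2, HISAT2 (version 2.1.0) and Bismark (version 0.19.0) without roles. Both tables hold log2 values deposited by the authors, a column for each library, which the values show to be log2 of RPM with 0.9 read in place of 0. Whole reads were recovered for 100% of H3K9me2 values. Another 4 H3K9me2 columns could be tied to no sample and were left out. Inputs, IgG and methylation were not analysed here.

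Groups came from the genotype in the labels, and replicates were numbered in accession order. The members and gene lists were chosen with earlier results of these data known. Levels are mean RPM per window of the summed reads. Tests used limma 3.58.1 (variance trend, robust) in R 4.3.3 (data.table package, version 1.17.8) on log2 RPM over all 6 libraries with a mean per group, Benjamini-Hochberg adjusted over all features. Features were the clusters with 500 kb tiles, 100 kb bins with reads in at least 50% of windows, and 10 kb windows with any read. The 30 kb fit, the distance profile and the flank ratio were added after the data had been seen. RNA was fitted over 11 libraries and all loci. A listed gene was matched to an RNA locus by name and strand or by at least 60% of its RefSeq span. P-values are two-sided. Reads without molecular identifiers are not independent molecules.

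Named were all clusters, the listed imprinted genes, the highest and lowest control windows and the called bin of largest difference per cluster and mutant. Promoter positions are from RefSeq GRCm38.p6, with the start of the RNA locus for Nespas and the RefSeq gene bounds for Peg10 and H19. The fits of clusters with tiles, 100 kb bins, 10 kb windows, 30 kb stretches and RNA were tested on simulated data, only for G9a cKO against control. The flank fit was not. Of 200 simulated 2-fold changes, 100% were recovered with clusters and tiles, 80.5% in 100 kb bins and 45.5% in RNA. In 10 kb windows and in 30 kb stretches 0% were recovered. At 30 kb 79% of 4-fold changes were recovered, and at 10 kb 46.5% of 8-fold changes. At 30 kb the simulation changed 200 of 85580 stretches, whereas 9234 of 85396 real stretches were called in G9a cKO. Fewer changed features make the adjusted threshold stricter, so these recoveries do not measure the power of the real fits. Alternatives were other scalings, tile sizes, filters, weights, a pseudocount and leaving out each library. Python 3.11.15, pandas 2.3.3, numpy 2.4.6 and matplotlib 3.10.9 were used for sums and figures.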

Additional observations from a re-analysis of the deposited data

Results flagged for a closer look

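The effect on Snrpn RNA differed between the mutants when the difference itself was tested: the effect in cDKO minus the effect in G9a cKO was -1.40 on the log2 scale (limma, adjusted p = 0.0456). Snrpn RNA was at 9.11 and 7.71 RPM in cDKO against 17.7 to 20.7 RPM in its controls, and at 28.0 to 38.1 RPM in G9a cKO against 25.2 to 35.0 RPM in its controls. For Ins2 RNA the same difference was 2.97 (adjusted p = 0.0437), which rests on 3 and 8 reads in cDKO where no other library had more than 1 read. Of all loci 1.08% were called in this comparison, and 2 of the 33 imprinted loci.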

How the results depend on the processing

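The fits rest on 2 libraries per group, and the mutant libraries hold a median of 4 to 7 reads per window, so single windows are limited by counting. The H3K9me2 labels share no replicate number across groups. In the RNA titles control and G9a cKO share 2 GKAO numbers, whose meaning is not given in the sources used here, and control and cDKO share 1 GKAQ number, too few for a block. Over 9091 loci the difference between the GKAO numbers correlated at 0.12 between control and G9a cKO. With that number as a replicate block, added after the data had been seen, 2 genes were called in G9a cKO, Grb10 (0.90) and Gnas (0.47), and the difference between the mutants' effects had an adjusted p of 0.0519 for Snrpn and 0.0457 for Ins2 (limma). Leaving out each library in turn gave 1 to 4 called clusters in G9a cKO, 0 to 5 in cDKO and 0 to 1 between the mutants, 7 to 26 called member bins in G9a cKO, 0 to 14 in cDKO and 0 to 2 between them, 0 to 37 called member windows in G9a cKO and 0 to 3 in cDKO, 0 to 3, 0 to 1 and 0 to 1 calls against the flanks, 3 to 8 and 0 to 1 called oocyte-methylated promoters at 30 kb, and 0 to 2 and 4 to 5 called RNA genes. With precision weights the counts were 6 clusters in cDKO, 37 bins in G9a cKO, 23 in cDKO and 2 between the mutants. For member windows in G9a cKO they were 64 with all windows tested, 5 with at least 20 reads required and 0 with a pseudocount of 1 RPM, and in cDKO 17 with all windows tested. For RNA in G9a cKO they were 1 with median centring, 1 with all 6 RNA controls pooled and 0 with a pseudocount of 1 RPM, and in cDKO 3 with that pseudocount. The cause of these shifts was not tested.

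These log2 differences changed sign when a library was left out, and none of them was called with all libraries. In G9a cKO against control the range was -0.038 to 0.128 for Mest and -0.052 to 0.22 for Peg10, and against their flanks -0.087 to 0.125 and -0.082 to 0.231. In cDKO against control it was -0.144 to 0.085 for Igf2r and -0.268 to 0.059 for Peg3 against their flanks, -0.203 to 0.318 for the Grb10 promoter bin, -0.713 to 0.0105 for the H19 bin and -0.389 to 0.291 for the Meg3 promoter at 30 kb. Between the mutants it was -0.051 to 0.22 for Peg10 and -0.186 to 0.026 for Peg3. The Nespas bin in G9a cKO ranged from -0.245 to 0.226 and was 0.073 with median centring and 0.061 with precision weights. The called window with 1 read in each control was -0.13 with a pseudocount of 1 RPM.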
